A study of Mus musculus with 16 samples.

Results

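MicroRNAs of the polar fragment were compared between mouse blastocysts paused with an mTOR inhibitor (mTORi) and normal (WT) blastocysts. The 5 libraries were those whose tissue label is the polar fragment of the blastocyst and whose treatment label is either pause by mTOR inhibition (n = 3) or WT (n = 2), out of 16 libraries in the series. Every file lists the same 1978 miRNA names, of which 308 had at least 1 count in these 5 libraries. The WT blastocysts were taken at embryonic day 4.5. No embryonic day, dose or duration, and no name of the inhibitor, is used here for the mTORi blastocysts, so age and inhibitor cannot be told apart. Polar fragments of blastocysts that entered diapause in vivo, taken at EDG 7.5 (n = 3), and mural fragments of mTORi (n = 3) and WT (n = 2) blastocysts served as further comparisons. The titles of the 3 mural mTORi samples hold the word diapaused, so every mural mTORi value rests on their treatment label, pause by mTOR inhibition. The labels name no strain and no genotype other than WT. They do not say how many embryos a library holds, or whether libraries came from separate litters or cultures, so p-values measure only the spread between these samples. The fragments were cut with a laser, and the polar piece is the one that holds the inner cell mass.

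A miRNA is a short RNA, cut from a hairpin precursor, that guides Argonaute proteins to messenger RNAs and lowers their output. Its target choice rests mainly on the seed, bases 2 to 8 from the 5′ end, and miRNAs with one seed form a family with overlapping predicted targets. mTOR is a kinase that couples nutrients and growth factors to protein synthesis and growth, and its inhibition holds mouse blastocysts and embryonic stem cells in a paused state that resembles embryonic diapause. In early mouse embryos the miR-290/miR-295 cluster dominates the miRNA pool and supports the rapid cell cycle of pluripotent cells. miR-17, miR-20a, miR-93 and their cluster mates are growth-promoting targets of Myc, the miR-200 family maintains epithelial identity, and the miR-10 genes lie within the Hox clusters.

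Mature sequences were matched for 1679 of the 1978 names from RefSeq (GRCm38.p6), and those that the results turn on are printed 5′ to 3′ with the seed in capitals. The first set holds miRNAs that were higher in mTORi than in WT polar fragments whether or not mTORi replicate 3 was used, grouped by shared seed.
miR-10b-5p: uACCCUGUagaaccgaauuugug
miR-10a-5p: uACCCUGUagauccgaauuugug
miR-148a-3p: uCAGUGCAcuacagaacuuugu
miR-148b-3p: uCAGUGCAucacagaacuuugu
miR-200c-3p: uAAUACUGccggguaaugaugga
miR-200b-3p: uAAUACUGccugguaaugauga
miR-322-5p: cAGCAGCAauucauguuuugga
miR-29a-3p: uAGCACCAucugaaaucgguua
miR-26b-5p: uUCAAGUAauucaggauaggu
The second set holds miRNAs that were lower in mTORi polar fragments, and miR-20a-5p, which shares the seed of miR-17-5p and miR-93-5p.
miR-672-5p: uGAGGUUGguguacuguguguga
miR-17-5p: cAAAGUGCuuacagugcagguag
miR-20a-5p: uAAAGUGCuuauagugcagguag
miR-93-5p: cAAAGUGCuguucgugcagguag
miR-340-5p: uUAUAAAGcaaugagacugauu
miR-186-5p: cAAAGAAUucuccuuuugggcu
A further set holds 3p and 5p arms from different hairpins of the miR-290/miR-295 cluster. The seed of miR-294-3p and miR-295-3p shares the run AAGUGC with that of miR-17-5p, offset by 1 base.
miR-294-3p: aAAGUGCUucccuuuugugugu
miR-295-3p: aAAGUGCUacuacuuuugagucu
miR-292a-5p: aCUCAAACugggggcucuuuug
miR-290a-5p: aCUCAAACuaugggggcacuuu
miR-291a-5p: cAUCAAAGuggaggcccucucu
The last set holds miRNAs whose level rested mainly on a single library.
miR-203-3p: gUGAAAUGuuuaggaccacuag
miR-205-5p: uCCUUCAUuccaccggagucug
miR-451a: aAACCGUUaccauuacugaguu

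Library depth was low and uneven. The mTORi libraries held 3061, 2184 and 3501 miRNA counts for replicates 1, 2 and 3, and the WT libraries 1744 and 4940. Counts were detected for 150, 147 and 165 names in the mTORi libraries and for 151 and 207 in the WT libraries. Scaled to the smallest depth of 1744 counts, 129.7, 138 and 138.5 names would be expected in the mTORi libraries, against 151 and 153.8 in the WT libraries. At matched depth, fewer miRNAs were thus detected in mTORi than in WT fragments. Polar fragments diapaused in vivo stood above both, at 166.1, 160.1 and 172.2 names. After scaling by TMM (trimmed mean of M values), 1 count was worth 357.7, 422.9 and 356.2 counts per 1000000 (CPM) in the mTORi libraries and 519 and 205.9 CPM in the WT libraries, which sets the precision of low levels. Counting intervals and floors below cover counting error only.

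Replicate 3 of the mTORi group stood apart. miR-203-3p, known from the differentiating layers of stratified epithelia, made up 0.425%, 1.60% and 21.4% of the counts in mTORi replicates 1, 2 and 3, against 0.459% and 0.364% in the WT libraries (95% Wilson intervals 0.248% to 0.725%, 1.16% to 2.22% and 20.0% to 22.8%, against 0.233% to 0.903% and 0.231% to 0.575%). The 6 miRNAs that gained most share in replicate 3 were miR-203-3p, miR-205-5p, miR-21a-5p, let-7b-5p, miR-320-3p and miR-26b-5p. Together they held 5.39%, 5.22% and 37.5% of mTORi replicates 1, 2 and 3, against 3.50% and 3.18% of the WT libraries. As they were picked for this gain, a higher sum in replicate 3 than in replicates 1 and 2 follows from the choice. The list of stratified epithelial miRNAs, of which miR-203-3p and miR-205-5p had counts, summed to 22, 40 and 904 counts in the mTORi libraries, against 8 and 26 in the WT libraries. A chi-square of the counts over its degrees of freedom was 4.04 between mTORi replicates 1 and 2, 21.7 between 1 and 3, and 16.9 between 2 and 3, against 3.37 between the WT libraries. With miR-203-3p left out the values were 3.79, 11.5 and 9.998, against 3.41. What set replicate 3 apart was not tested, and results are given with and without it.

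**Figure D1:**
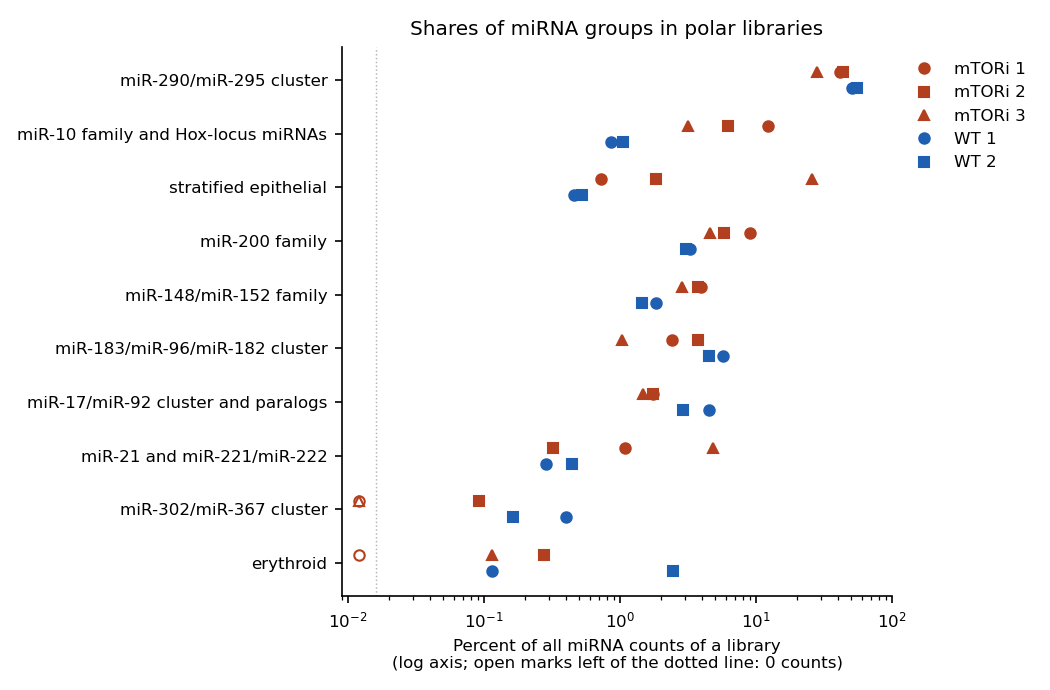
Percent of all miRNA counts of each polar library (log axis) held by 10 groups of miRNAs, with the 3 mTORi libraries above the 2 WT libraries in each row and open marks for groups without a count. The miR-10, miR-200 and miR-148/miR-152 groups sit higher in all 3 mTORi libraries, the miR-290/miR-295 and miR-17/miR-92 groups lower, and the stratified epithelial miRNAs stand out in mTORi replicate 3 at 25.8%.

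Across all 5 libraries, 102 miRNAs were tested and 23 were called at an adjusted p under 0.05 (22.5%) in the edgeR quasi-likelihood test. Of these, 13 were higher (12.7% of those tested) and 10 lower (9.80%) in mTORi polar fragments. Without mTORi replicate 3, 106 were tested and 13 called (12.3%), 10 higher (9.43%) and 3 lower (2.83%), and all 13 were also among the 23. At an unadjusted p under 0.05 there were 43 with all libraries and 30 without replicate 3. The calls rest on a spread estimated over all 16 libraries. In a fit of the 5 libraries alone 2 miRNAs were called, and without WT replicate 1 or 2 the count was 7 or 4. With 3 against 2 libraries, an exact one-sided permutation test of one value cannot go below 0.1. Groups that do not overlap reach only that value, so a lack of overlap is given below as a description and not as a test. The share of all tested miRNAs without overlap is not given here. The balance of higher and lower calls depended on scaling: with library size in place of TMM, 11 were higher and 15 lower with all libraries, and 7 higher and 6 lower without replicate 3. The median log2 fold change over tested miRNAs was 0.18 with TMM and 0.04 with library size alone, and without replicate 3 it was 0.34 and 0.05. All 23 called miRNAs kept their direction under TMM, RLE and library-size scaling, and the smallest rise with all libraries, 1.01, lay above these medians. With library size alone, miR-10a-5p (2.87, edgeR adjusted p = 0.0534) and miR-30d-5p (1.10, adjusted p = 0.0506) lost their calls. Without replicate 3, miR-10a-5p, miR-148b-3p and miR-26b-5p were called with TMM but with neither RLE factors nor library size. With no filter on low counts 8 of the 23 lost their call, namely miR-148a-3p (1.01), miR-148b-3p (1.72), miR-200c-3p (0.82), miR-30d-5p (1.04), miR-26b-5p (1.34), miR-93-5p (-1.96), miR-186-5p (-4.16) and miR-466f-3p (-2.75), at edgeR adjusted p values of 0.0546 to 0.473. In these bulk fragments, fewer cells of a type and less of a miRNA per cell cannot be told apart.

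**Figure D2:**
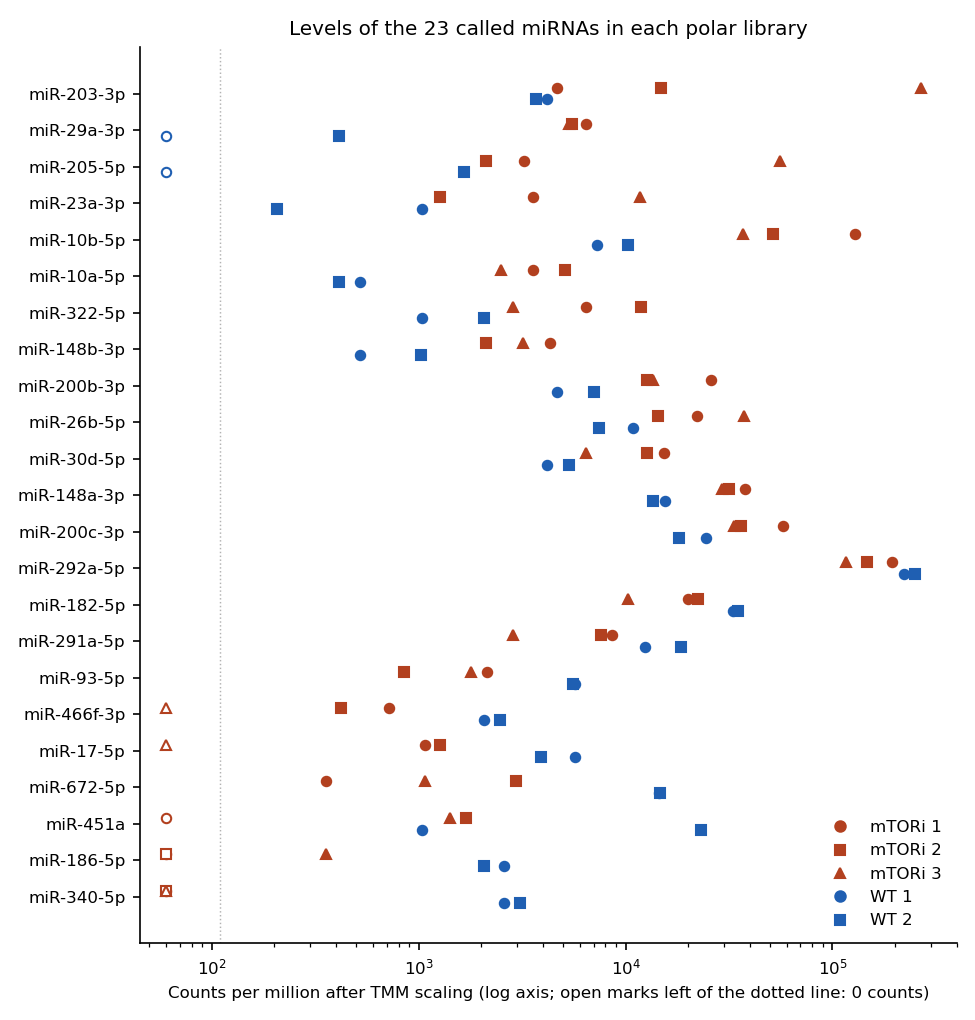
Level of each of the 23 called miRNAs in every polar library, in CPM after TMM scaling (log axis), ordered by log2 fold change, with mTORi libraries (red) above WT libraries (blue) in each row. Open marks are libraries with 0 counts; miR-203-3p and miR-205-5p are set by mTORi replicate 3 and miR-451a by WT replicate 2, while miR-10b-5p is high in all 3 mTORi libraries.

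The rise called under the most alternatives was in the miR-10 family. miR-10b-5p (chr2:74726074-74726096, plus strand, in an intron of Hoxd3 and Hoxd4) had 361, 122 and 104 counts in the mTORi libraries, against 14 and 50 in the WT libraries. It held 11.8%, 5.59% and 2.97% of the mTORi counts (95% Wilson intervals 10.7% to 13.0%, 4.70% to 6.63% and 2.46% to 3.59%), against 0.803% and 1.01% of the WT counts (0.479% to 1.34% and 0.769% to 1.33%). The groups did not overlap, and its share differed severalfold among the mTORi libraries. Its mean level was 72588 ± 49490 CPM in mTORi and 8780 ± 2142 CPM in WT fragments (SD, n = 3 and 2), a log2 fold change of 3.02 (SE 0.44, edgeR adjusted p = 0.000257). Without replicate 3 it was 3.57 (SE 0.38, adjusted p = 2.2e-06). miR-10b-5p was called under all 11 alternatives of scaling, filter, tool, block, fit and left-out library, at 2.30 to 3.57. Its sister miR-10a-5p (chr11:96317186-96317208, plus strand, outside annotated genes on its strand) had 10, 12 and 7 counts in mTORi, against 1 and 2 in WT libraries. That is a count ratio of 8.23 after scaling (exact 95% interval 2.55 to 42.2), with a log2 fold change of 2.997 (SE 1.01, edgeR adjusted p = 0.0386) and 3.45 without replicate 3. The miR-10a-5p call was lost with library-size scaling and, at values of 2.47 to 3.02, without any 1 of mTORi replicates 1 and 2 and WT replicates 1 and 2.

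The miR-148/miR-152 family, whose members are known to target DNA methyltransferase mRNAs, was higher as well. miR-148a-3p (chr6:51269829-51269850, minus strand, intergenic) had 106, 75 and 82 counts in mTORi, against 30 and 66 in WT libraries. The 3 mTORi libraries lay above both WT libraries in CPM, at a mean of 32948 ± 4479 against 14580 ± 1401 CPM (SD, n = 3 and 2). The log2 fold change was 1.18 (SE 0.27, edgeR adjusted p = 0.0131), and 1.51 (adjusted p = 0.000754) without replicate 3. miR-148b-3p, from an intron of Copz1 on chromosome 15, had 12, 5 and 9 counts in mTORi, against 1 and 5 in WT libraries, a log2 fold change of 1.90 (SE 0.61, edgeR adjusted p = 0.0305) with all libraries and 2.14 without replicate 3. The third member tested, miR-152-3p, had 2, 2 and 7 counts in mTORi, against 0 and 1 in WT libraries, and was not called (adjusted p = 0.0687). Of the 3 tested members 2 rose, in both fits, with a median log2 fold change of 1.90 with all libraries and 2.14 without replicate 3. Of all tested miRNAs 12.7% rose with all libraries and 9.43% without replicate 3. The call of miR-148a-3p was lost without WT replicate 2 (1.17, adjusted p = 0.0676). That of miR-148b-3p was lost without mTORi replicate 1 (1.63), WT replicate 1 (1.54) or WT replicate 2 (2.67).

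In the miR-200 family, which represses the mesenchymal factors Zeb1 and Zeb2, all 5 tested members had a positive log2 fold change and 2 were called in both fits. Of all tested miRNAs, 58 of 102 were positive and 12.7% called higher with all libraries, and 60 of 106 and 9.43% without replicate 3. The family held 9.05%, 5.82% and 4.57% of mTORi counts, against 3.27% and 3.08% of WT counts, without overlap. miR-200c-3p (chr6:124718324-124718346, minus strand, in an intron of Gm15884) had 162, 85 and 94 counts in mTORi, against 47 and 88 in WT libraries. Its level was 42459 ± 13460 CPM in mTORi and 21256 ± 4437 CPM in WT fragments (SD, n = 3 and 2), a log2 fold change of 1.01 (SE 0.25, edgeR adjusted p = 0.0187), and 1.41 without replicate 3. miR-200b-3p (chr4:156055685-156055706, minus strand, in an intron of Ttll10) had 72, 30 and 38 counts in mTORi, against 9 and 34 in WT libraries, a log2 fold change of 1.53 (SE 0.39, edgeR adjusted p = 0.0187), and 1.92 without replicate 3. Its level stood above both WT libraries in all 3 mTORi libraries, as did that of miR-200c-3p. miR-200a-3p (28, 8 and 19 counts in mTORi, against 1 and 16 in WT libraries) had a log2 fold change of 1.61 and missed the threshold (edgeR adjusted p = 0.0592, and 0.0608 without replicate 3). miR-200c-3p lost its call without WT replicate 2 (0.87, adjusted p = 0.0802) and miR-200b-3p without WT replicate 1 (1.18, adjusted p = 0.0949).

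miR-29a-3p also rose. It is known to target extracellular matrix and DNA methyltransferase mRNAs. It had 18, 13 and 15 counts in mTORi, against 0 and 2 in WT libraries (chr6:31062673-31062694, minus strand, intergenic), a count ratio of 19.6 after scaling (exact 95% interval 5.12 to 166.5). The mTORi libraries were even, at 5760 ± 592 CPM (SD, n = 3). The edgeR adjusted p was 0.0187 with all libraries and 0.0160 without replicate 3, and 0.0833 and 0.0906 without WT replicate 1 and 2, with a log2 fold change of 3.67 without WT replicate 1. miR-29a-3p and miR-10b-5p were the 2 miRNAs called when the 5 libraries were fitted alone.

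Another 4 miRNAs rose, from different families. miR-322-5p, a growth-arrest miRNA of the miR-15/miR-16 seed from the X-linked miR-322/miR-503 cluster, had 18, 28 and 8 counts in mTORi, against 2 and 10 in WT libraries. Its log2 fold change was 2.04 (SE 0.60, edgeR adjusted p = 0.0236), and 2.63 without replicate 3. No other member of that cluster was called. With all libraries 4 of its 5 tested members had a positive log2 fold change, at a median of 0.98, and 1 was called. Of all 102 tested miRNAs 58 were positive and 12.7% were called higher. miR-322-3p, from the same hairpin, had 5, 7 and 2 counts in mTORi, against 2 and 4 in WT libraries (log2 fold change 0.98). miR-351-5p had 6, 7 and 5 counts in mTORi, against 0 and 14 in WT libraries (0.35). miR-30d-5p had 43, 30 and 18 counts in mTORi, against 8 and 26 in WT libraries, a log2 fold change of 1.24 (SE 0.38, edgeR adjusted p = 0.0245) and 1.76 without replicate 3. miR-26b-5p (chr1:74394324-74394344, plus strand, in an intron of Ctdsp1) had 62, 34 and 105 counts in mTORi, against 21 and 36 in WT libraries, and rose by 1.46 (SE 0.41, edgeR adjusted p = 0.0187) on the log2 scale, and by 1.28 (adjusted p = 0.0320) without replicate 3. In a table of counts summed by seed, scaled by its own factors, the same counts gave 0.85 (edgeR adjusted p = 0.107) without replicate 3 and were not called. miR-23a-3p rose with all libraries (10, 3 and 33 counts in mTORi, against 2 and 1 in WT libraries; count ratio 13.1, exact 95% interval 4.20 to 65.6), and without replicate 3 its edgeR adjusted p was 0.0608. None of these 4 kept an adjusted p under 0.05 without WT replicate 1, where their log2 fold changes were 1.66, 0.98, 1.69 and 4.65, or without WT replicate 2, where they were 2.82, 1.52, 1.31 and 2.57. miR-322-5p also lost it without mTORi replicate 2 (1.22), and miR-30d-5p without mTORi replicate 1 (0.96) or 2 (0.94).

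miR-203-3p and miR-205-5p, both known from stratified epithelia, were called higher with all libraries and not without replicate 3. miR-203-3p had 13, 35 and 748 counts in mTORi, against 8 and 18 in WT libraries, a log2 fold change of 4.61 (edgeR adjusted p = 0.0187) that became 1.52 (adjusted p = 0.0630) without replicate 3. miR-205-5p had 9, 5 and 156 counts in mTORi, against 0 and 8 in WT libraries, with 4.24 (edgeR adjusted p = 0.0287) and, without replicate 3, 1.54 (adjusted p = 0.270). With the replicate number as a block miR-205-5p was not called (3.40, edgeR adjusted p = 0.108). Neither was called without WT replicate 1 or 2, where miR-203-3p stood at 4.77 in each fit and miR-205-5p at 3.68 without WT replicate 1. The others of the 6 miRNAs that gained most share in replicate 3 were not called in either fit, apart from miR-26b-5p above. Of these, miR-21a-5p, an anti-apoptotic miRNA, had 27, 6 and 127 counts in mTORi, against 4 and 19 in WT libraries.

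**Figure D3:**
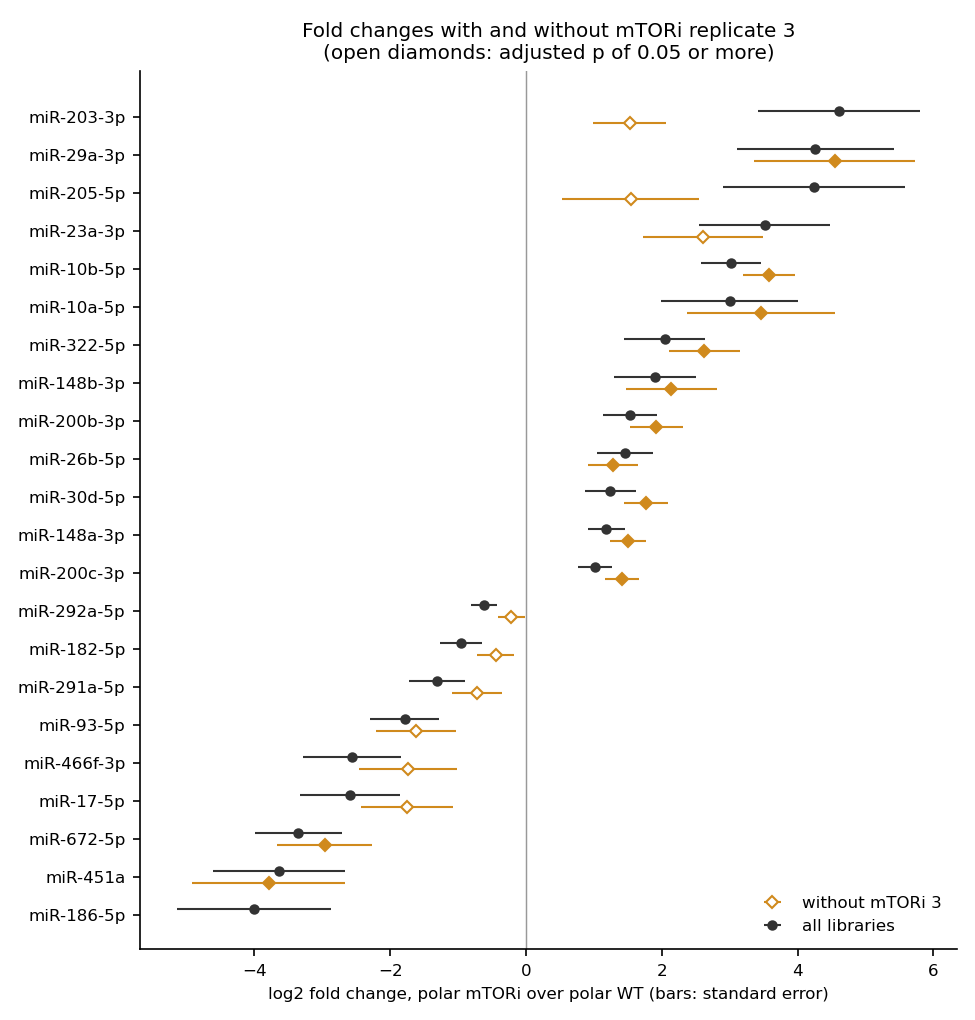
Log2 fold change of mTORi over WT polar fragments (x axis; bars are the standard error) for the called miRNAs with at least 1 count in the mTORi libraries fitted, with all libraries (circles) and without mTORi replicate 3 (diamonds, open where the adjusted p was 0.05 or more). miR-10b-5p, miR-200c-3p and miR-148a-3p move to larger values without replicate 3, while miR-203-3p drops to 1.52 and miR-292a-5p to -0.21.

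The fall called under the most alternatives was that of miR-672-5p, an X-linked miRNA from an intron of Nexmif (chrX:104116228-104116250, minus strand). It had 1, 7 and 3 counts in mTORi, against 28 and 71 in WT libraries. All 3 mTORi libraries were far below both WT libraries, at 1462 ± 1345 CPM against 14575 ± 61.1 CPM (SD, n = 3 and 2). The log2 fold change was -3.35 (SE 0.64, edgeR adjusted p = 0.00339), about 10.2-fold lower, and -2.96 (SE 0.70, adjusted p = 0.00731) without replicate 3. miR-672-5p was called under 10 of 11 alternatives, at -4.61 to -2.88, and not in the fit of the 5 libraries alone (adjusted p = 0.0538).

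miR-17-5p and miR-93-5p, which share a seed and promote proliferation, fell. miR-17-5p (chr14:115043684-115043706, plus strand, in the host transcript Mir17hg) had 3, 3 and 0 counts in mTORi, against 11 and 19 in WT libraries, a log2 fold change of -2.60 (SE 0.74, edgeR adjusted p = 0.0187). miR-93-5p (chr5:138165574-138165596, minus strand, within Mcm7) had 6, 2 and 5 counts in mTORi, against 11 and 27 in WT libraries, a log2 fold change of -1.79 (SE 0.51, edgeR adjusted p = 0.0187). Neither overlapped between the groups. Without replicate 3 the values were -1.75 (adjusted p = 0.0812) and -1.62 (adjusted p = 0.0701), and without WT replicate 1 or 2 neither miRNA was called (miR-17-5p -2.45 and -2.81, miR-93-5p -1.87 and -1.73). miR-20a-5p, of the same seed, had 6, 2 and 1 counts in mTORi, against 7 and 24 in WT libraries, and missed the threshold (edgeR adjusted p = 0.0549). miR-18a-5p, from the same host transcript, had 0, 0 and 2 counts in mTORi, against 8 and 10 in WT libraries (count ratio 0.0946, exact 95% interval 0.0106 to 0.395; adjusted p = 0.0687). Other members differed: miR-92a-3p had a log2 fold change of -0.42 and miR-25-3p one of 0.79, neither called. Of the 6 tested members of the miR-17/miR-92 group 2 fell, against 9.80% of all tested miRNAs, and the median was -1.87. Without replicate 3 none of 7 was called by edgeR, and the median was -1.48. Of these 7, 3 had an unadjusted p under 0.05, all lower, against 30 of all 106 tested miRNAs in either direction. DESeq2 called 4 of the 6 lower with all libraries, against 32 calls in either direction over all tested miRNAs.

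miR-340-5p and miR-186-5p were at or near 0 in the mTORi fragments. miR-340-5p, from an intron of Rnf130, had 0 counts in all 3 mTORi libraries, against 5 and 15 in WT libraries, which is at least 7.83-fold lower with 3 counts taken over the mTORi group (edgeR adjusted p = 0.0237). Without replicate 3 the bound was 5.07-fold and the adjusted p 0.0630. miR-186-5p, from an intron of Zranb2, had 0, 0 and 1 counts in mTORi, against 5 and 10 in WT libraries (count ratio 0.0568, exact 95% interval 0.00135 to 0.369), and was called in both fits (edgeR adjusted p = 0.0187 and 0.0376). miR-466f-3p, of the Sfmbt2 cluster, had 2, 1 and 0 counts in mTORi, against 4 and 12 in WT libraries, and was called with all libraries but not without replicate 3 (adjusted p = 0.101). None of these 3 was called without WT replicate 1 or 2, where the edgeR adjusted p lay at 0.0753 and 0.116 for miR-340-5p, 0.0753 and 0.0906 for miR-186-5p, and 0.0545 and 0.134 for miR-466f-3p. miR-186-5p was also not called without mTORi replicate 1 (adjusted p = 0.0508).

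The call of miR-451a, a red blood cell miRNA, rested on 1 WT library. It had 0, 4 and 4 counts in mTORi, against 2 and 113 in WT libraries, and the groups overlapped. It made up 2.29% of WT replicate 2 (95% Wilson interval 1.91% to 2.74%) and 0.115% of WT replicate 1 (0.0314% to 0.417%). The log2 fold change of -3.64 (edgeR adjusted p = 0.0187) became 0.11 (adjusted p = 0.973) without WT replicate 2. The whole erythroid list summed to 0, 6 and 4 counts in mTORi libraries, against 2 and 120 in WT libraries.

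The miR-290/miR-295 cluster on chromosome 7 was the largest group in every library, with 41.1%, 43.7% and 27.9% of the counts in mTORi libraries, against 50.6% and 55.3% in WT libraries. Its mean share was 37.6% ± 8.50 in mTORi and 53.0% ± 3.32 in WT fragments (SD, n = 3 and 2), and 42.4% ± 1.84 in mTORi fragments without replicate 3, without overlap in either case. Of its 13 tested members 2 fell and none rose with all libraries, against 9.80% lower and 12.7% higher among all tested miRNAs. Without replicate 3 edgeR called none, and 2 had an unadjusted p under 0.05, both higher, against 30 of all 106 tested miRNAs in either direction. The 2 that fell were 5p arms, but the estimates did not split by arm. Among members not called, the 3p arms miR-291a-3p and miR-291b-3p had log2 fold changes of -1.15 (SE 0.57) and -1.33 (SE 0.84). The 5p arms miR-294-5p and miR-295-5p had 0.03 (SE 0.72) and 0.59 (SE 0.53). miR-292a-5p (chr7:3219200-3219221, plus strand), the most abundant miRNA over the 5 libraries, held 17.8%, 15.98% and 9.37% of mTORi counts, against 24.4% and 24.5% of WT counts (95% Wilson intervals 16.5% to 19.2%, 14.5% to 17.6% and 8.45% to 10.4%, against 22.4% to 26.4% and 23.3% to 25.7%). Its log2 fold change was -0.62 (SE 0.19, edgeR adjusted p = 0.0266), and -0.21 (adjusted p = 0.479) without mTORi replicate 3 or -0.45 (adjusted p = 0.156) without WT replicate 2. miR-291a-5p had 24, 18 and 8 counts in mTORi, against 24 and 90 in WT libraries, and -1.31 (SE 0.41, edgeR adjusted p = 0.0287) became -0.72 without mTORi replicate 3 and -0.92 without WT replicate 2, neither called. The 3p arm miR-294-3p, of the cell-cycle seed of the cluster, had 290, 263 and 257 counts in mTORi, against 154 and 469 in WT libraries, a log2 fold change of 0.21 (adjusted p = 0.378).

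Within the cluster, the balance between arms differed between the groups. The 5p arms made up 49.7%, 47.0% and 40.9% of the cluster's counts in the mTORi libraries, against 58.7% and 56.1% in the WT libraries. As a share of all miRNA counts, 5p arms held 20.4%, 20.6% and 11.4% in mTORi, against 29.7% and 31.1% in WT libraries, while 3p arms held 20.7%, 23.2% and 16.5% in mTORi, against 20.9% and 24.3% in WT libraries. The 5p values did not overlap between the groups, with or without replicate 3, and the 3p values did overlap. This ratio within a library does not depend on scaling, and it does not show which of the arms changed. It sums arms over hairpins, so unequal change of arms and of hairpins cannot be told apart in it. The log2 fold changes of 5p and 3p arms were -1.31 and -1.15 for miR-291a and -1.48 and -1.33 for miR-291b. They were -0.62 and -0.20 for miR-292a, -0.73 and -0.30 for miR-293, 0.03 and 0.21 for miR-294, and 0.59 and 0.41 for miR-295.

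miRNAs that share a seed were then summed, over names with a mature sequence, which held 87.4% to 91.0% of the counts. Of 66 seed families tested 19 were called (28.8%) with all libraries, 9 higher and 10 lower, and of 67 without replicate 3, 15 were called (22.4%), 5 higher and 10 lower. The calls shared 14 families. The seed table was scaled by its own TMM factors, and the balance of calls rested on them. Families of a single name, which hold the counts of that miRNA, stood lower than in the fit of single miRNAs, with a median difference of -0.14 on the log2 scale with all libraries and -0.44 without replicate 3 (34 families). A fit of the seeds with the library sizes and factors of the miRNA fit was added after seeing the data. It called 19 families with all libraries, 10 higher and 9 lower, of which 18 were shared with the first fit, and 11 without replicate 3 (16.4%), 7 higher and 4 lower, of which 9 were shared. The median over all tested families without replicate 3 was -0.15 with the seed table's own factors and 0.32 with those of the miRNA fit. The families of miR-10a-5p and miR-10b-5p, of miR-672-5p, and of miR-17-5p were called under all 9 alternatives tried, the fit of the 5 libraries alone and the fits without 1 library included, and with the factors of the miRNA fit. The miR-10 seed, ACCCUGU, had a log2 fold change of 2.83 (SE 0.41, edgeR adjusted p = 0.000349) and a range of 2.14 to 3.37.

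The seed of miR-17-5p, AAAGUGC, had 17, 7 and 8 counts over miR-93-5p, miR-20a-5p, miR-17-5p and miR-106b-5p in mTORi libraries, against 31 and 77 in WT libraries. The mTORi libraries were all below the WT libraries, and the log2 fold change was -2.15 (SE 0.39, edgeR adjusted p = 0.00192), with a range of -2.64 to -1.67 over the alternatives. The related seed of miR-294-3p, AAGUGCU, summed to 348, 316 and 293 counts in mTORi libraries, against 185 and 575 in WT libraries, mostly from miR-294-3p and miR-295-3p. It stood at 0.01 (SE 0.18, edgeR adjusted p = 0.973), and between -0.10 and 0.31 over the alternatives, with no call in any of the 9. With the factors of the miRNA fit it was 0.17, and 0.499 (edgeR adjusted p = 0.0748) without replicate 3. Within a library, the miR-17 seed gave 4.88, 2.21 and 2.73 counts per 100 counts of the miR-294 seed in mTORi, against 16.8 and 13.4 in WT libraries. The ratio was lower in every mTORi library than in either WT library, on a measure that needs no scaling. In polar fragments diapaused in vivo it was 7.5, 11.1 and 12.1, between the mTORi and WT values. In mural fragments it was 2.92, 3.83 and 2.19 in mTORi, against 5.52 and 5.87 in WT libraries, so the mural WT values lay near that of polar mTORi replicate 1 and below both polar WT values.

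**Figure D4:**
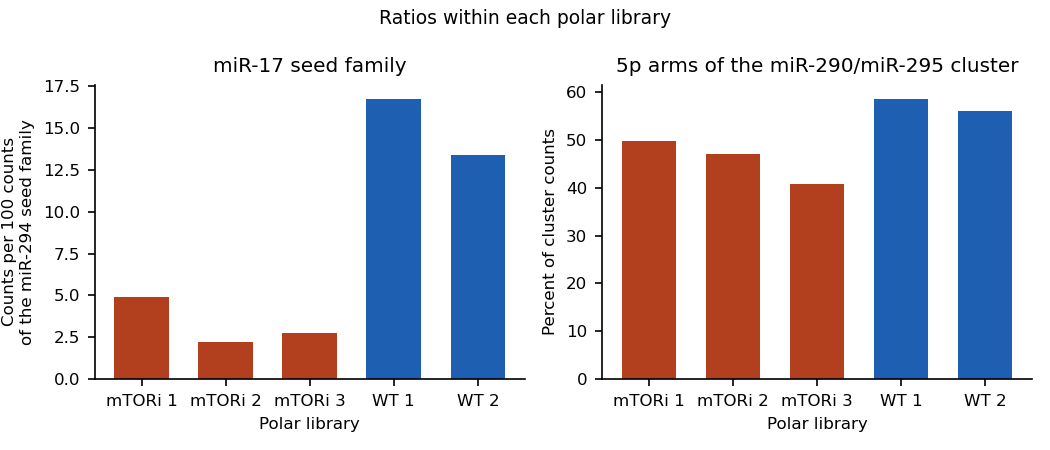
Ratios within each polar library, with the 3 mTORi libraries (red) left of the 2 WT libraries (blue). Left, counts of the miR-17 seed family per 100 counts of the miR-294 seed family, at 2.21 to 4.88 in mTORi against 13.4 and 16.8 in WT; right, percent of the counts of the miR-290/miR-295 cluster on 5p arms, at 40.9% to 49.7% in mTORi against 56.1% and 58.7% in WT.

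Further seed families were called. The seed of the miR-148/miR-152 family, CAGUGCA, with 120, 82 and 98 counts in mTORi, against 31 and 72 in WT libraries, had 1.14 (SE 0.23, edgeR adjusted p = 0.00318) and was called under 8 of 9 alternatives. The seed of miR-200c-3p, miR-200b-3p and miR-429-3p, AAUACUG, had 0.99 (adjusted p = 0.00765) and that of miR-322-5p, AGCAGCA, 1.47 (adjusted p = 0.0412). The first was not called without WT replicate 1 (1.06) or 2 (1.06), nor the second without mTORi replicate 1 (1.38) or WT replicate 1 (0.99). Of the 5p seeds of the miR-290/miR-295 cluster, CUCAAAC and AUCAAAG fell with all libraries. CUCAAAC, of miR-292a-5p, miR-290a-5p and miR-293-5p, fell by 0.81 (SE 0.18, edgeR adjusted p = 0.00604) on the log2 scale. AUCAAAG, of miR-291a-5p and miR-291b-5p, fell by 1.51 (adjusted p = 0.00840). CUCAAAU, of miR-295-5p (0.44, edgeR adjusted p = 0.595), and CUCAAAA, of miR-294-5p (-0.15, adjusted p = 0.916), were not called. Without replicate 3 the calls of CUCAAAC and AUCAAAG rested on the scaling. With the seed table's own factors the values were -0.70 and -1.21, both called, and with those of the miRNA fit -0.25 (edgeR adjusted p = 0.365) and -0.76 (adjusted p = 0.0819). CUCAAAC was not called without mTORi replicate 2 (-0.49) or WT replicate 2 (-0.56), nor AUCAAAG without WT replicate 2 (-1.20).

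**Figure D5:**
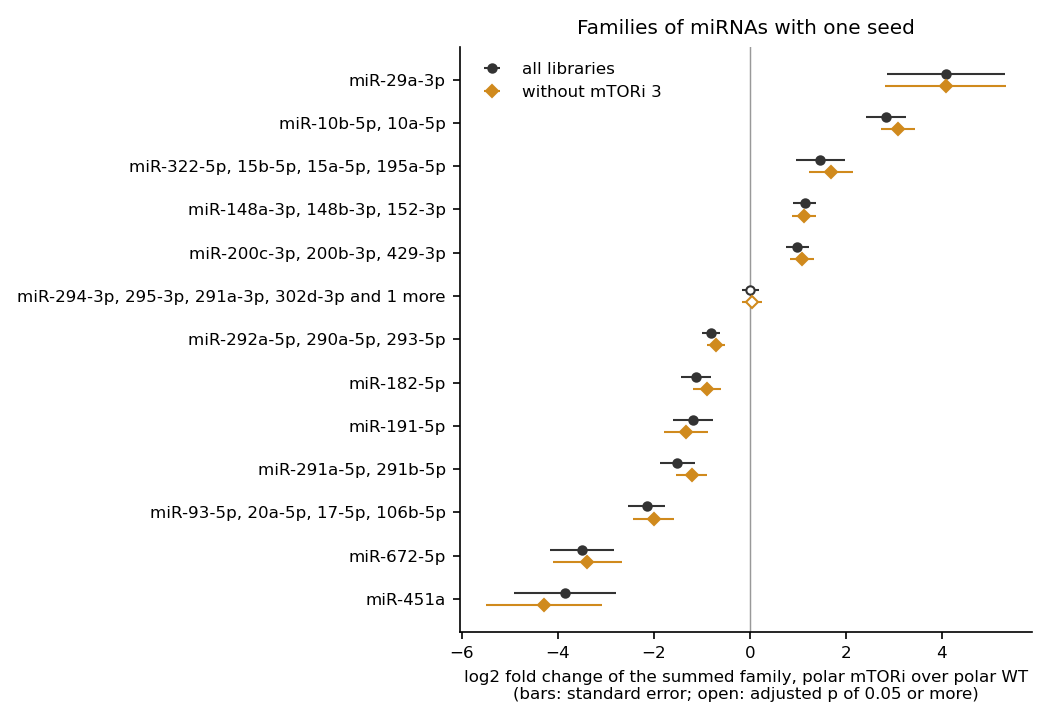
Log2 fold change of counts summed by seed, mTORi over WT polar fragments (x axis; bars are the standard error), scaled by the seed table's own TMM factors, for families called in both fits with a count in mTORi replicates 1 and 2, and for the family of miR-294-3p. The miR-10 family stands at 2.83, the family of miR-17-5p at -2.15 and that of miR-294-3p at 0.01 with all libraries.

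Other lists were described by their counts. The miR-183/miR-96/miR-182 cluster, known from sensory tissues and pluripotent cells, held 2.42%, 3.71% and 1.03% of mTORi counts, against 5.68% and 4.51% of WT counts. Its miR-182-5p fell with all libraries (56, 53 and 29 counts in mTORi, against 64 and 169 in WT libraries; log2 fold change -0.95, edgeR adjusted p = 0.0327) and was not called without replicate 3 (-0.45, adjusted p = 0.256), WT replicate 1 (-1.09) or WT replicate 2 (-0.84). The miR-302/miR-367 cluster, whose miR-302 members share the seed of miR-294-3p and which marks later pluripotent cells, had 0, 2 and 0 counts in mTORi, against 7 and 8 in WT libraries, and no member was tested. The differentiation-linked let-7 family had 46, 30 and 131 counts in mTORi, against 25 and 64 in WT libraries, of which 18, 14 and 97 counts, against 10 and 24, were let-7b-5p. edgeR called 0 of its 5 tested members, with 1 higher and 1 lower at an unadjusted p under 0.05, where 43 of all 102 had one. DESeq2 called 0 of the 5, against 32 calls over all tested miRNAs. The miR-30 family had 5 tested members, all with a positive log2 fold change and 1 called, where 58 of all 102 tested miRNAs were positive and 12.7% called higher. The miR-743/miR-880/miR-881 cluster of the X chromosome, with 95, 125 and 67 counts in mTORi, against 56 and 193 in WT libraries, had 7 tested members and the imprinted Dlk1-Dio3 cluster 4. Neither had a member called by edgeR or DESeq2, or one at an unadjusted p under 0.05. The imprinted miR-296 and miR-298 of the Gnas locus held 0.196%, 0.275% and 0.229% of mTORi counts, against 0.745% and 0.628% of WT counts, without overlap. edgeR called none of their 3 tested members with all libraries, 2 were lower at an unadjusted p under 0.05, and DESeq2 called 2 lower. Over all 102 tested miRNAs, 43 had an unadjusted p under 0.05 and DESeq2 called 32, in either direction.

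miRNAs known from other tissues were rare apart from the erythroid and stratified epithelial ones given above. Leukocyte miRNAs summed to 1, 8 and 10 counts in mTORi, against 2 and 17 in WT libraries, endothelial ones to 0, 0 and 2, against 0 and 6, and stromal ones to 2, 7 and 4, against 1 and 5. Liver miRNAs gave 6, 8 and 5 counts in mTORi, against 3 and 10 in WT libraries, neural ones 1 count in mTORi replicate 3, and muscle ones 0 in all 5 libraries (which allows a share of up to 0.0343% of the summed mTORi counts and 0.0449% of the WT counts). Among miRNAs abundant in mural trophectoderm, miR-322-5p had 94, 58 and 73 counts in mural mTORi and 136 and 154 in mural WT libraries, and miR-503-5p 15, 9 and 5 in mural mTORi and 178 and 235 in mural WT libraries. In the polar libraries miR-503-5p had 14, 0 and 2 counts in mTORi, against 2 and 14 in WT. The part of mural tissue in the polar rise of miR-322-5p was not tested.

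The mTORi effect in polar fragments was set against that in mural fragments, which shares no library with it. edgeR called 0 of 102 miRNAs for the difference of the effects (0%), with 14 at an unadjusted p under 0.05. Without polar mTORi replicate 3 it called 1 of 106 (0.943%), miR-351-5p. This miRNA of the miR-322/miR-503 cluster had 6, 7 and 5 counts in polar mTORi, against 0 and 14 in polar WT libraries, and 7, 5 and 7 in mural mTORi, against 113 and 137 in mural WT libraries. The difference of log2 fold changes was 3.80 (SE 0.85, edgeR adjusted p = 0.0310), and 3.60 (adjusted p = 0.0651) with replicate 3. It thus fell in mural fragments, by 3.26 on the log2 scale (edgeR adjusted p = 0.000755), and its 18 counts in polar mTORi fragments leave the polar side imprecise. For the polar members named above the 2 effects were, with polar first, 3.02 and 2.11 for miR-10b-5p, 1.18 and 2.02 for miR-148a-3p, 4.26 and 3.49 for miR-29a-3p, and -3.35 and -4.49 for miR-672-5p. For miR-200b-3p they were 1.53 and -0.08, and for miR-322-5p 2.04 and 0.07, and neither difference was called (edgeR adjusted p = 0.213 and 0.270, and 0.0570 for both without replicate 3).

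Polar mTORi fragments were also compared with polar fragments diapaused in vivo, another pause of the blastocyst, which share no library. Of 102 tested miRNAs 16 were called (15.7%), 8 higher and 8 lower in mTORi. Without replicate 3, 15 of 106 were called (14.2%), 11 higher and 4 lower, and 10 were called in both fits. miR-29a-3p again stood out, with 18, 13 and 15 counts in mTORi, against 4, 4 and 0 in diapaused libraries of 9049 to 14500 counts. It was 4.58 (SE 0.82, edgeR adjusted p = 0.00333) higher on the log2 scale, and 4.89 without replicate 3. miR-203-3p was also higher in both fits, with 13, 35 and 748 counts in mTORi, against 41, 37 and 37 in diapaused libraries. Its log2 fold change was 4.84 (edgeR adjusted p = 0.00517) with all libraries and 1.78 (adjusted p = 0.0146) without replicate 3. In the other direction, miR-28a-3p, from an intron of Lpp, had 0 counts in all mTORi libraries, against 36, 17 and 16 in diapaused libraries (edgeR adjusted p = 0.00654), and miR-5099 had 7, 4 and 0 counts in mTORi, against 214, 72 and 80 in diapaused libraries, with a log2 fold change of -2.79. miR-101a-3p (1.66), miR-30e-5p (1.27) and miR-30e-3p (2.35) were higher in mTORi and let-7d-5p (-1.78) lower in both fits. miR-10b-5p had 361, 122 and 104 counts in mTORi, against 527, 474 and 302 in diapaused libraries, and was called without replicate 3 only (1.56, edgeR adjusted p = 0.00224; 0.97, adjusted p = 0.0574, with it). miR-672-5p was not called between the 2 paused states (-0.92, edgeR adjusted p = 0.349), and miR-93-5p was lower in mTORi (-1.57, edgeR adjusted p = 0.0270) with all libraries but not without replicate 3 (-1.37, adjusted p = 0.103). This comparison also moved with single libraries: 3 miRNAs were called in a fit of the 6 libraries alone, and 6, 5 and 4 without diapaused replicates 1, 2 and 3.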

How the data were processed

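Small RNA libraries of laser-cut blastocyst fragments were made, per the labels' protocols, with adapters that carry unique molecular identifiers, without size selection, and read to 75 nt on a NextSeq500. The deposited values are whole-number counts per mature miRNA name, not normalized; the GRCm38 build is named in the submitters' processing notes, while for the aligner, miRNA annotation and any collapsing of identifiers nothing was given in the sources used here. Reads of near-identical family members may therefore be split between names, and 53 names with a sequence come from more than 1 locus.

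Groups followed the tissue and treatment labels, also for the mural mTORi samples, whose titles hold the word diapaused. All tests used edgeR 4.0.16 under R 4.3.3 (filterByExpr, minimum count 10, minimum total 15; TMM; quasi-likelihood test over all 16 libraries with one mean per group, 10 residual degrees of freedom, common dispersion 0.142; Benjamini-Hochberg adjustment over all tested miRNAs). Tested miRNAs held 92.8% to 96.2% of the 5 polar libraries' counts. Without mTORi replicate 3 the filter, factors and fit were recomputed. Where a group had no count, a bound used 3 counts over that group, and with 1 to 3 counts a ratio of counts has an exact 95% interval. DESeq2 1.42.0, other scalings, no filter, a replicate block, the compared groups alone and each library left out were alternatives. Seed sums were fitted with TMM factors of their own and, as an alternative chosen after seeing the data, with those of the miRNA fit. Named miRNAs were those called in either fit, the 10 most abundant, the 5 next by p, list members with at least 20 counts and those called in the other contrasts. The members, lists and tests were chosen with earlier results of these data known. The edgeR steps were tested on simulated counts. Each miRNA name was matched to RefSeq sequences by name.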

Additional observations from a re-analysis of the deposited data

Results flagged for a closer look

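The mTORi effect on miR-351-5p differed between polar and mural fragments by 3.80 on the log2 scale in edgeR without polar mTORi replicate 3 (polar minus mural, adjusted p = 0.0310; 3.60 and 0.0651 with it), and was flagged as a difference between groups under the same contrast. Polar counts were 6, 7 and 5 in mTORi, against 0 and 14 in WT libraries, and mural counts 7, 5 and 7 in mTORi, against 113 and 137 in WT libraries.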

How the results depend on the processing

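Counts of calls moved more than the directions of the named miRNAs. For mTORi against WT polar fragments, the 23 calls became 2 in a fit of the groups compared alone and 4 to 28 with 1 library left out. Without mTORi replicate 3, the 13 calls became 5 in the groups compared alone and 5 to 10 with a further library left out. The 0 calls for the difference between polar and mural effects became 1 with RLE factors and 6 with no filter, and 0 to 1 with 1 library left out. The 16 calls against diapaused fragments became 3 in the groups compared alone and 4 to 18 with 1 library left out, and the 19 seed families 5 and 6 to 20. With the factors of the miRNA fit, an alternative chosen after seeing the data, the count of seed families was also 19. DESeq2 called 32 miRNAs (22 shared with the 23), and 12 without mTORi replicate 3. No filter gave 16 calls and RLE factors 24. With the replicate block, 24 miRNAs were called with all libraries and 12 without mTORi replicate 3. The replicate numbers share only their number: differences between replicates 1 and 2 in mTORi and WT libraries had a correlation of -0.045 over 102 miRNAs.

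The sign turned in fits without 1 library for miR-429-3p (-0.88 to 6.48), miR-351-5p (-0.42 to 7.04), miR-451a (-4.55 to 0.11), miR-292a-3p (-0.46 to 0.13), miR-293-3p (-0.59 to 0.069), miR-294-3p (-0.12 to 0.52) and miR-295-3p (-0.053 to 1.06), of which miR-451a was called; its counts lie almost wholly in the WT library left out, and for the others the cause was not tested. The values of 6.48 and 7.04 were fitted against a WT library at 0 counts and are no bound. Depth limits low levels, since 1 count is worth 206 to 519 CPM.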
